A study of Mus musculus with 9 samples.

Results

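Chemokine ligands are small secreted proteins that guide white blood cells through tissue, and 37 of their genes were found among the 19517 genes measured here in mouse ovary. They were taken by symbol, as every gene named Ccl, Cxcl, Cx3cl, Xcl, Pf4 or Ppbp with its number and letter. The ovaries came from female BALB/c nude mice and gave 9 RNA-seq libraries, 3 in each of 3 groups. All 3 groups carried a xenograft of MDA-MB-231, an established human breast cancer line, in an athymic strain that makes few mature T cells but has macrophages, NK cells and B cells. UT mice were untreated, CTX mice received the alkylating drug cyclophosphamide, and CAU mice received caulerpin, an alkaloid from Caulerpa seaweeds. The labels name caulerpin alone for CAU and do not say whether those mice also had cyclophosphamide, and they give no age, dose or time.

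Most chemokines bind receptors of the G protein-coupled class on white blood cells, and several ligands share a receptor. Some are induced by inflammatory signals such as interferon-gamma, TNF and interleukin 1, in part through NF-kB, while others are made steadily by stroma, endothelium or epithelium. In the ovary, chemokines take part in the entry of macrophages and other white blood cells around ovulation, luteal regression and follicle loss.

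The values are those of the authors' deposited table, which reports a log2 fold change with its DESeq2 p-value, raw and adjusted over all genes, in 3 comparisons: CTX against UT, CAU against CTX, and CAU against UT. A positive value means higher in the group named first, a reading that the column names do not state and that was chosen because Cdkn1a, a gene induced by DNA damage, is then higher in CTX; read the other way, each direction here would flip. Values per library were not analysed here, so neither levels nor the overlap of single ovaries can be given, the tissue label cannot be checked by marker level, and depth is unknown. The spread is given as the standard error (SE) that each p-value implies, with its 95% interval. The labels number the libraries without naming mice, so p-values measure only the spread between these libraries, which may be technical. In bulk tissue, fewer cells of a type and less RNA per cell cannot be told apart.

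Promoter sequences are shown first for 5 members, chosen after their values were seen. Ccl22, Ccl8 and Cxcl9 had the smallest p-values of the family in CTX against UT, and Cxcl1 and Cxcl10 are inducible members with NF-kB letters near the start. Each is the 250 bases before the start site from RefSeq, build GRCm38.p6, 5′ to 3′ on the gene's own strand. Capitals mark matches on either strand to the NF-kB core GGGANNTTC, the interferon motifs GAAANNGAA (ISRE) and TTCNNNGAA (GAS), or TATAAA. Other forms of these sites are not marked, so lower-case letters do not show that a site is absent.
Ccl22 (chr8:94745434-94745683, plus strand): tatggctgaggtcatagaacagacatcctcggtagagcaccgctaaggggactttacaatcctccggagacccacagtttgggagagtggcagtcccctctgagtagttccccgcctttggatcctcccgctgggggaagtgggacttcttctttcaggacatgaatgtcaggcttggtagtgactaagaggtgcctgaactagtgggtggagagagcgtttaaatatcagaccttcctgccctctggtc
Ccl8 (chr11:82114935-82115184, plus strand): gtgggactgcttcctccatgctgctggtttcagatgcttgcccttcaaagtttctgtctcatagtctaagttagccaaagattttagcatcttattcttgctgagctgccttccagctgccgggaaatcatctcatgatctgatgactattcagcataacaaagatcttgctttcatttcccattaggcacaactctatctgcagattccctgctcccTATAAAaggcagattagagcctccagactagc
Cxcl9 (chr5:92328080-92328329, minus strand): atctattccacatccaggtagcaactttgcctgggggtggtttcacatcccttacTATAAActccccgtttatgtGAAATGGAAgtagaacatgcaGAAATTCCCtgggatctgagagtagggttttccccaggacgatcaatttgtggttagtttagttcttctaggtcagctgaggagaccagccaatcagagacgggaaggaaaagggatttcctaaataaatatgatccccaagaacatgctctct
Cxcl1 (chr5:90890995-90891244, plus strand): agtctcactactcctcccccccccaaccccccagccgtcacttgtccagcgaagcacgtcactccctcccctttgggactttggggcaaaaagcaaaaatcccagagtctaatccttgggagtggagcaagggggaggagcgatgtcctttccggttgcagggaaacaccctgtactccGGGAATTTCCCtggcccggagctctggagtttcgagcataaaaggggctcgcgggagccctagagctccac
Cxcl10 (chr5:92348890-92349139, minus strand): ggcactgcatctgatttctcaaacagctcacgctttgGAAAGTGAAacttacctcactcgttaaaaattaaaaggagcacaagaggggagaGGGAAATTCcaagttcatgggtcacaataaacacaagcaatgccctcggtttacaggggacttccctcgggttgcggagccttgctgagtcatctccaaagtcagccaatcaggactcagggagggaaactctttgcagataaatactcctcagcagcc

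Of the 37 members, 27 had a RefSeq promoter entry, and 6 of these 27 held GGGANNTTC (Ccl1, Cxcl1, Cxcl10, Cxcl2, Cxcl3 and Cxcl9), against 3.7% of 27025 genes with an entry. GAAANNGAA was in 6 of the 27 (Ccl1, Ccl19, Ccl3, Cxcl10, Cxcl14 and Cxcl9) and in 8.18% of all, and TTCNNNGAA in 2 (Ccl17 and Cxcl14) and in 8.13% of all. TGANTCA (AP-1) was in 5 and in 7.82% of all, TTGCNNAA (C/EBP) in 5 and in 10.8% of all, and TATAAA in 11 and in 14.3% of all. In Cxcl10 the ISRE match began 213 bases and the NF-kB match 159 bases before the start site, and in Cxcl9, its neighbour, 175 and 154 bases before it. In Cxcl1, overlapping NF-kB matches on the plus and minus strands began 71 and 69 bases before the start site, and in Ccl8 TATAAA began 32 bases before it. The window of Ccl22 held none of the 4 sets of letters. A match is a run of letters only, other forms of these sites were not counted, and binding was not measured. The entries of the other 10 members (Ccl11, Ccl2, Ccl24, Ccl26, Ccl4, Ccl5, Ccl7, Cxcl16, Cxcl17 and Cxcl5) are missing.

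In CTX ovaries the chemokine ligand genes lay below UT almost throughout, with log2 fold changes from -6.43 (Ccl22) to 0.78 (Ccl27b). Of the 37, 35 had a log2 fold change below 0, against 55.8% of all 19260 genes tested, but only Ccl22 passed the test, at adjusted p under 0.05. In that direction 0.82% of all genes passed. Another 7 members, 8 with Ccl22, had an unadjusted p under 0.05, all lower. These were 21.6% of members, against 5.79% of all genes, and 0 members were higher, against 4.42% of all genes. The median log2 fold change over the members was -0.60, against -0.03 over all genes. The mean weighted by precision, in which each gene counts by the inverse of its squared SE, was -0.52 for the members and 0.01 for all genes. With equal weights the member mean was -0.99.

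The precision differed widely among members. The SE ran from 0.14 for Cxcl12 to 4.08 for Ccl1 and Cxcl3, with a median of 0.61 against 0.21 over all genes, so most members were measured less precisely than a typical gene. At its own SE, a member needed a log2 change of 0.49 (Cxcl12) to 14.0 (Ccl1 and Cxcl3) to reach the smallest z of any called gene, and 22 of the 37 needed more than 2. Genes of low precision were mostly below 0 in this comparison whatever their family, at 75.9% of all genes with an SE over 0.5 and up to 1, and 69.4% of those with an SE over 1. Members in these ranges were below 0 in 15 of 16 and 10 of 10 cases. At an SE no larger than 0.5, 48.8% of all genes but 10 of 11 members were below 0, with a member median of -0.43.

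**Figure D1:**
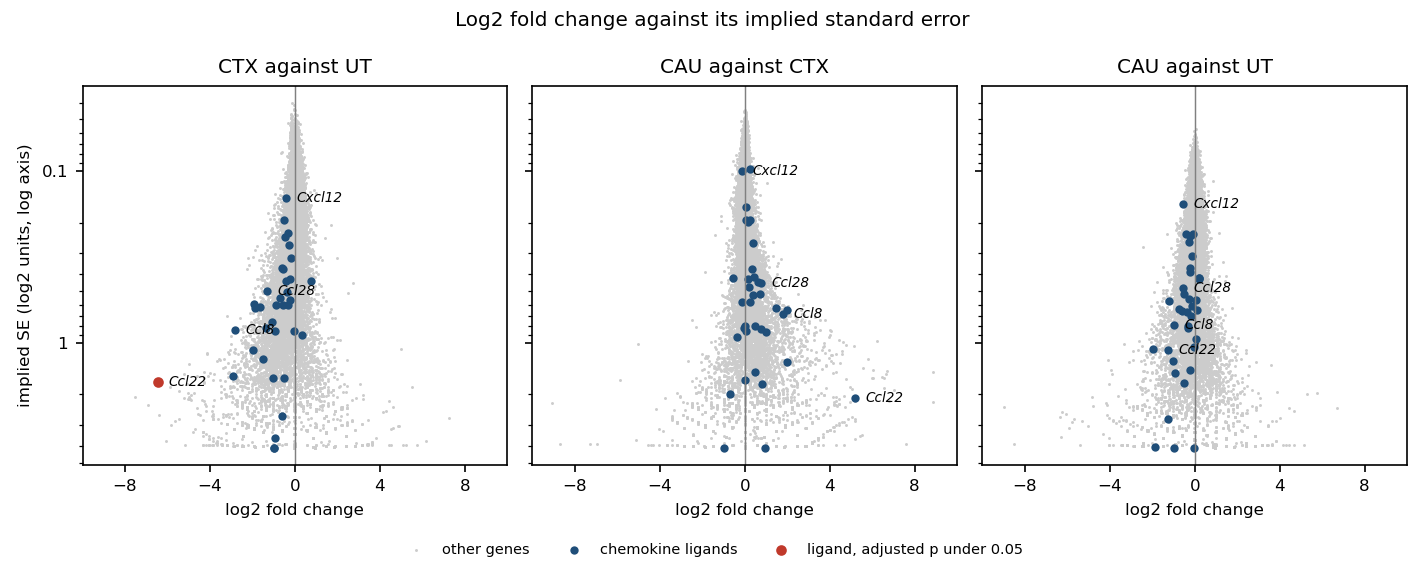
Log2 fold change (horizontal) against implied SE (vertical, log axis, precise genes at the top) in the 3 comparisons, with the chemokine ligands in blue, the called ligand in red and other genes in grey; 1 gene of CTX against UT lies outside the horizontal range. In CTX against UT the precise ligands sit just left of 0 (Cxcl12 at -0.43) and Ccl22 far left at -6.43 with an SE of 1.70.

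Of the ligands of Ccr4, a receptor of regulatory and type 2 helper T cells, Ccl22 fell and Ccl17 did not pass. Ccl22, made chiefly by dendritic cells and macrophages, was at -6.43 (SE 1.70, 95% interval -9.75 to -3.10, adjusted p = 0.0188) by the authors' deposited table. That is 86.0-fold lower, with an interval from 8.58-fold to 862-fold. Levels are not known here, and where a group has few or no reads such a fold and its normal interval do not measure the size of a fall. This log2 fold change ranked 4 from the lowest of 19260 genes, while its p-value ranked 156. No member passed at adjusted p under 0.01, or with genes of SE over 1, Ccl22 among them, left out of the test. The gene's next values by the authors' deposited table were 5.18 (SE 2.10, 95% interval 1.07 to 9.29) for CAU against CTX and -1.24 (SE 1.10, 95% interval -3.38 to 0.91) for CAU against UT, neither past the threshold. The SE of Ccl22 was larger in the 2 comparisons that hold the CTX group than in the one that does not. Ccl17, the other ligand of Ccr4 and a neighbour of Ccl22, was at -1.34 (SE 0.82), 1.003 (SE 0.87) and -0.33 (SE 0.82) by the authors' deposited table, in the order of comparisons used above. Both ligands thus had their lowest fold in CTX against UT, and the interval of Ccl17 included 0 each time.

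Monocyte-attracting ligands of Ccr2 divided into a pair with intervals below 0 in CTX against UT and a pair whose intervals included 0. Ccl8 (MCP-2) was at -2.82 (SE 0.85, 95% interval -4.47 to -1.16, adjusted p = 0.0602) for CTX against UT by the authors' deposited table, just outside the threshold. Ccl12 (MCP-5) was at -1.63 (SE 0.62, 95% interval -2.85 to -0.42, adjusted p = 0.217) there by the authors' deposited table. For CAU against CTX, the authors' deposited table gave 1.81 (SE 0.68, 95% interval 0.48 to 3.14) for Ccl8 and 1.49 (SE 0.63, 95% interval 0.25 to 2.72) for Ccl12, and for CAU against UT -0.996 (SE 0.79) and -0.14 (SE 0.61). Their intervals thus lay below 0 in the first comparison and above 0 in the second, with no adjusted p past the threshold. Ccl2 (MCP-1), the best-known monocyte attractant, was at only -0.54 (SE 0.60) for CTX against UT by the authors' deposited table, with 0.27 (SE 0.58) and -0.27 (SE 0.55) in the others. Ccl7 (MCP-3) was at -0.95 (SE 0.85), 0.78 (SE 0.83) and -0.16 (SE 0.70) by the authors' deposited table. A difference between Ccl8 and Ccl2 was not tested.

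Of Ccl5, Ccl6, Ccl9, Ccl3 and Ccl4, neighbouring ligands of monocytes, macrophages and T cells, all 5 were below 0 in CTX against UT and none passed. Ccl5 (RANTES), which T and NK cells make in quantity, was at -1.88 (SE 0.63, 95% interval -3.11 to -0.65, adjusted p = 0.116) for CTX against UT by the authors' deposited table. In CAU against CTX, the authors' deposited table gave it 1.97 (SE 0.65, 95% interval 0.70 to 3.24, adjusted p = 0.230), the smallest adjusted p of the family there, and in CAU against UT 0.10 (SE 0.65, 95% interval -1.17 to 1.37). Its values thus lay lowest in CTX, while CAU and UT lay within an SE of each other. Ccl6 and Ccl9, made by macrophages and other myeloid cells, were measured more precisely, at -0.60 (SE 0.37) and -0.34 (SE 0.23) for CTX against UT by the authors' deposited table. Their values for CAU against CTX by the authors' deposited table were 0.39 (SE 0.26) and 0.05 (SE 0.19), and for CAU against UT -0.20 (SE 0.39) and -0.28 (SE 0.26). Ccl3 and Ccl4 (MIP-1 alpha and beta) were at -0.32 (SE 0.61) and -0.23 (SE 0.56) for CTX against UT by the authors' deposited table, and their RefSeq gene spans overlap by 755 bases, so reads there may not be told apart.

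Interferon-induced ligands of Cxcr3, a receptor of activated T and NK cells, had overlapping intervals in CTX against UT, and none passed the threshold. Cxcl9 was at -1.94 (SE 0.59, 95% interval -3.10 to -0.77, adjusted p = 0.0685) for CTX against UT by the authors' deposited table. It was the one inducible member whose interval also lay below 0 in CAU against UT, at -1.20 (SE 0.57, 95% interval -2.32 to -0.08) by the authors' deposited table, with 0.73 (SE 0.52) for CAU against CTX. Cxcl10, its neighbour on chromosome 5 which like Cxcl9 has both ISRE and NF-kB letters in its window, was at -0.35 (SE 0.50), 0.40 (SE 0.53) and 0.06 (SE 0.56) by the authors' deposited table. Whether the pair differed was not tested. Cxcl11, the third ligand of Cxcr3, was not analysed here.

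Among the steadily made ligands, Cxcl12 was measured most precisely. Cxcl12 (SDF-1), made by stroma and endothelium and the ligand of Cxcr4, was at -0.43 (SE 0.14, 95% interval -0.71 to -0.15, adjusted p = 0.111) for CTX against UT by the authors' deposited table, close to the change of 0.49 that its SE required. For CAU against UT, the authors' deposited table gave -0.53 (SE 0.16, 95% interval -0.84 to -0.23, adjusted p = 0.293), the smallest p-value of the family in that comparison, and for CAU against CTX -0.11 (SE 0.10, 95% interval -0.31 to 0.09). Both differences from UT had intervals below 0 without passing the threshold, and the interval between CAU and CTX included 0. The differences from UT use the same UT libraries, so they are not independent. Cxcl16, a membrane-bound ligand and scavenger receptor of macrophages, was at -0.53 (SE 0.19, 95% interval -0.91 to -0.15, adjusted p = 0.181) for CTX against UT by the authors' deposited table, then 0.13 (SE 0.20) and -0.39 (SE 0.23).

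Cxcl14, a ligand of epithelium and stroma, lay near 0 throughout, at -0.19 (SE 0.32), 0.06 (SE 0.16) and -0.12 (SE 0.31) by the authors' deposited table. Cx3cl1 (fractalkine), the membrane-bound ligand of Cx3cr1, was at -0.30 (SE 0.27), 0.23 (SE 0.19) and -0.06 (SE 0.23) by the authors' deposited table. Cxcl13, which draws B cells to follicles of lymphoid tissue, was at -1.97 (SE 1.10), -0.02 (SE 0.82) and -1.98 (SE 1.09) by the authors' deposited table. Its values for CTX and CAU against UT, which share the UT libraries, were alike, with wide intervals. Cxcl17, a ligand of mucosal epithelium, was at -2.92 (SE 1.55), 1.98 (SE 1.30) and -0.93 (SE 1.50) by the authors' deposited table. Every interval of these 4 genes included 0.

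Epithelial and lymphoid CC ligands gave 1 member with an interval below 0 in CTX against UT. Ccl28, a ligand of mucosal epithelium that binds Ccr10, was at -1.31 (SE 0.50, 95% interval -2.29 to -0.33, adjusted p = 0.220) by the authors' deposited table, then 0.75 (SE 0.45) for CAU against CTX and -0.55 (SE 0.48) for CAU against UT. Ccl25, which guides cells to gut and thymus, was at -0.43 (SE 0.43), 0.62 (SE 0.44) and 0.20 (SE 0.42) by the authors' deposited table. Ccl21a, the ligand of Ccr7 made by lymphatic endothelium, was at -0.47 (SE 0.24, 95% interval -0.95 to 0.01) for CTX against UT by the authors' deposited table. In CAU against CTX it had the smallest SE of the family, at 0.24 (SE 0.10, 95% interval 0.05 to 0.44) by the authors' deposited table, with -0.22 (SE 0.24) for CAU against UT. Ccl19, the other ligand of Ccr7, had SEs from 1.99 to 2.77, too wide to place it.

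A set of 4 members share most of their sequence with other genes, and their values are uncertain for that reason. In GENCODE M21 transcripts, 100% of the 31-base words of Ccl27b, 80.6% of those of Ccl21a, 58.8% of those of Ccl19 and 57.0% of those of Ccl27a also occur in another gene, including Ccl21b and Ccl19 pseudogenes, and for the Ccl27 pair in each other. Ccl27b was the member farthest above 0 in CTX against UT, at 0.78 (SE 0.44, 95% interval -0.09 to 1.64) by the authors' deposited table, while Ccl27a, of the same keratinocyte chemokine, was at -0.23 (SE 0.43, 95% interval -1.07 to 0.60). In CAU against CTX the pair again had opposite signs by the authors' deposited table, -0.56 (SE 0.42) and 0.44 (SE 0.41), and in CAU against UT both were at 0.22. How reads were divided between such copies is not given in the sources used here. No other member shared more than 7.59% of its words (Cxcl2, with Cxcl3).

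Of the neutrophil-attracting ligands of Cxcr2, none passed the test in any comparison. Cxcl1 (KC), the most precisely measured of the 6, was at -0.56 (SE 0.37), 0.33 (SE 0.37) and -0.22 (SE 0.37) by the authors' deposited table. Cxcl5 was above 0 in CTX against UT, at 0.34 (SE 0.90) by the authors' deposited table, and Cxcl15 lay at -0.02 (SE 0.85). Setting the median of all genes to 0 put Cxcl15 at 0.0065, above 0. Cxcl2 and the platelet ligand Ppbp were at -1.02 (SE 1.61) and -0.50 (SE 1.61) by the authors' deposited table, so changes of several fold either way lay within their intervals. Pf4, made by megakaryocytes and carried in platelets, was at -0.69 (SE 0.55), 0.18 (SE 0.47) and -0.51 (SE 0.52) by the authors' deposited table. The 9 platelet markers, which include both of these ligands, had a median of -0.28 with none called. None of these 7 ligands had an interval that excluded 0 in any comparison.

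Eotaxins, which attract eosinophils through Ccr3, were below 0 in CTX against UT without passing. Ccl11 was at -0.89 (SE 0.60), 0.17 (SE 0.43) and -0.72 (SE 0.64), and Ccl24 at -1.07 (SE 0.76), 0.48 (SE 0.79) and -0.58 (SE 0.65), by the authors' deposited table. Xcl1, made by NK cells and CD8 T cells for dendritic cells that carry Xcr1, was at -1.50 (SE 1.24), 0.49 (SE 1.48) and -1.01 (SE 1.27) by the authors' deposited table. Ccl1, Ccl26 and Cxcl3 had SEs of 3.58 or more in every comparison that held them. In CTX against UT, the authors' deposited table repeats the log2 fold change of -0.98 and the p-value of Ccl1 and Cxcl3 in 278 genes, among them Ifng and Il6, and that of Ccl26 in 3 genes. Ccl1 is blank in CAU against CTX, which left 36 members there.

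**Figure D2:**
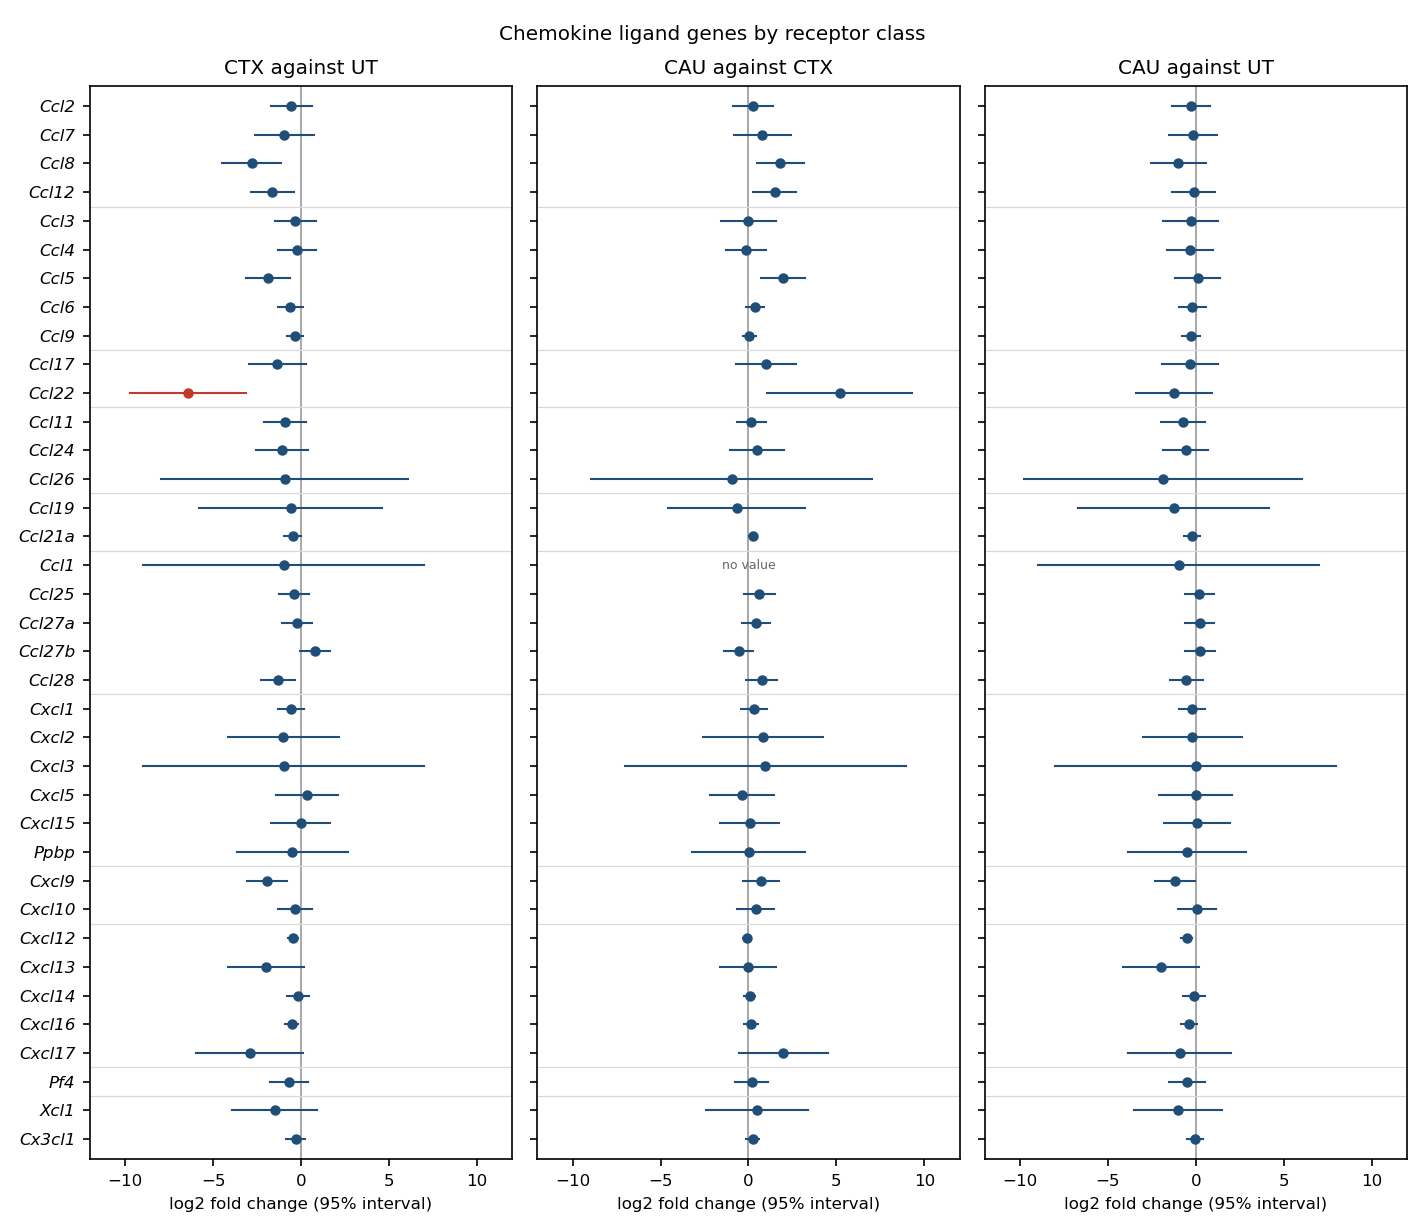
Log2 fold change of each chemokine ligand gene in the 3 comparisons, with points for the deposited value and bars for the 95% interval its p-value implies; lines divide the classes and red marks adjusted p under 0.05. Red appears once, for Ccl22 in CTX against UT, and the intervals of Ccl8, Ccl12, Ccl5 and Ccl22 lie left of 0 in the first panel and right of 0 in the second.

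Between CAU and CTX, 29 of 36 members were above 0, against 52.3% of all 19245 genes tested. None passed the DESeq2 test at adjusted p under 0.05, where 0.312% of all genes were higher and 0.13% lower. At an unadjusted p under 0.05, 5 members were higher (13.9%, against 3.32% of all genes) and 0 lower (against 2.04%): Ccl5, Ccl8, Ccl21a, Ccl22 and Ccl12. The member median was 0.30 and the weighted mean 0.16, against 0.00 and -0.01 for all genes, and Ccl21a and Cxcl12 held 25.7% and 24.4% of the weight. With equal weights the member mean was 0.53. Since both comparisons contain the CTX libraries, a value low in CTX against UT tends to come with a high one here, and the 2 are set side by side only. The members above 0 included 12 of 14 with an SE of at most 0.5, a range in which 53.1% of all genes were below 0.

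Between CAU and UT, 31 of 37 members were below 0, against 52.2% of all 19302 genes. None passed the DESeq2 test, where 0.0207% of all genes were lower and 0.0311% higher, and 2 members were lower at an unadjusted p under 0.05 (Cxcl12 and Cxcl9; 5.41%, against 2.26% of all genes) and 0 higher (against 1.2%). The member median was -0.31 and the weighted mean -0.30, against -0.01 and 0.00 for all genes, and the equally weighted member mean was -0.47. Members above 0 were Ccl25, Ccl27a, Ccl27b, Ccl5, Cxcl10 and Cxcl15, with values from 0.06 to 0.22. In this comparison a member needed a log2 change of at least 0.67 (Cxcl12) to pass, and 26 of 37 needed more than 2. Since CTX against UT holds the same UT libraries, a value low there tends to come with a low one here.

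Most members lie in gene clusters, given here by RefSeq on GRCm38.p6 with members within 1000 kb joined. On chromosome 11, the 6 genes from Ccl2 to Ccl1 (positions 82035577 to 82179812, also Ccl7, Ccl11, Ccl12 and Ccl8) were all below 0 in CTX against UT, with a weighted mean of -1.23. The 5 genes from Ccl5 to Ccl4 farther along (83525778 to 83664683, also Ccl9, Ccl6 and Ccl3) were also all below 0, with a weighted mean of -0.49. On chromosome 5, the 7 genes of the Cxcl1 cluster (90759298 to 90905938) had a weighted mean of -0.47, with 6 below 0. On chromosome 8, Ccl22, Cx3cl1 and Ccl17 lie within 66.4 kb (94745684 to 94812038) and ranged from -6.43 to -0.30. The weighted means of the same clusters for CAU against CTX were 0.72, 0.24, 0.21 and 0.31, and for CAU against UT -0.41, -0.24, -0.26 and -0.13, in that order. Genes side by side ranged widely, as Ccl22 and Cx3cl1 do.

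Among the receptors, Cx3cr1 fell in CTX. Of 17 chemokine receptors, 1 fell and none rose in CTX against UT, where 0.82% and 0.472% of all genes fell and rose. Below 0 were 14 of the 17, against 55.8% of all genes, with a median of -1.01 and a weighted mean of -0.61. At an unadjusted p under 0.05 there were 4 of the 17, where 5.79% of all genes were lower and 4.42% higher. Cx3cr1, the fractalkine receptor of monocytes and tissue macrophages, was at -1.42 (SE 0.30, 95% interval -2.01 to -0.83, adjusted p = 0.000742) by the authors' deposited table. Ccr2, the receptor for Ccl2, was at -1.52 (SE 0.46, 95% interval -2.43 to -0.61, adjusted p = 0.0659) by the authors' deposited table, just outside the threshold. Cxcr4, the receptor for Cxcl12, was the receptor measured most precisely, at -0.33 (SE 0.23) by the authors' deposited table. Beside its receptor, the ligand Cx3cl1 was at -0.30 by the authors' deposited table, a difference that was not tested.

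For CAU against CTX, the authors' deposited table gave 0.91 (SE 0.42, 95% interval 0.08 to 1.74) for Ccr2 and 0.30 (SE 0.36, 95% interval -0.39 to 1.00) for Cx3cr1, neither past the threshold. For CAU against UT, it gave -1.11 (SE 0.28, 95% interval -1.66 to -0.56) for Cx3cr1 by the authors' deposited table, with adjusted p = 0.109, and -0.60 (SE 0.53) for Ccr2. No receptor passed the DESeq2 test in either of these comparisons. Of the 17, 10 were above 0 in the first, where 52.3% of all genes were. In the second 13 were below 0, where 52.2% of all genes were. In each, 1 receptor had an unadjusted p under 0.05. At that level 3.32% of all genes were higher and 2.04% lower in CAU against CTX. The shares in CAU against UT were 1.2% higher and 2.26% lower. Among the 5 atypical receptors, which bind chemokines without G protein signalling, none passed in any comparison. At an unadjusted p under 0.05 there was 1 in CTX against UT and 0 in the others. In CTX against UT, 5.79% of all genes were lower and 4.42% higher at that level. Of the atypical receptors, Ackr3, which scavenges Cxcl12, was at -0.06 (SE 0.15) for CTX against UT by the authors' deposited table. Ackr1, of venous endothelium and red cells, was at -2.21 (SE 0.82, 95% interval -3.81 to -0.60) there by the authors' deposited table.

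**Figure D3:**
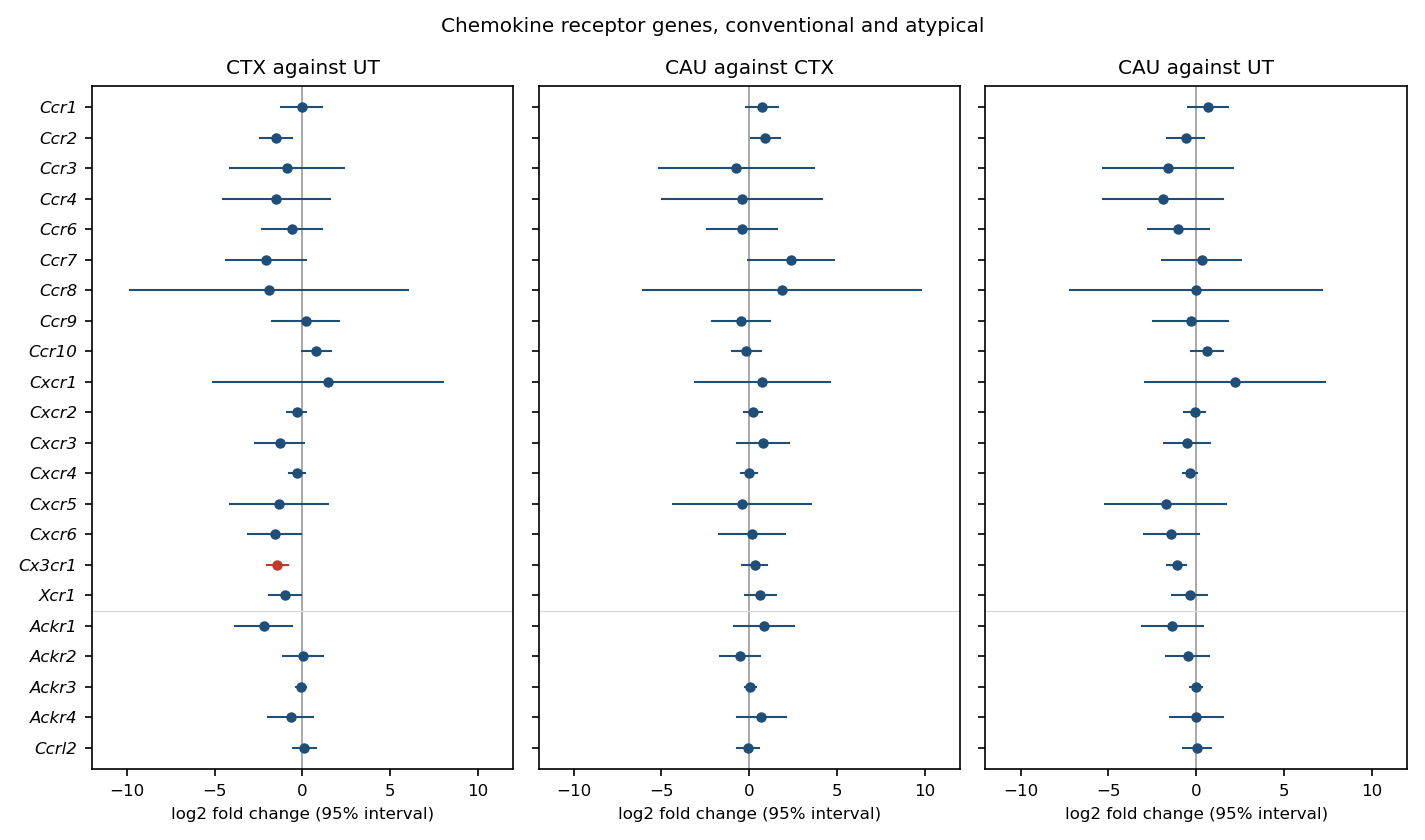
Log2 fold change of 17 chemokine receptors (above the line) and 5 atypical receptors (below it) in the 3 comparisons, drawn as points with 95% intervals, red for adjusted p under 0.05. Cx3cr1 is red in CTX against UT, at -1.42, and no receptor is red in the other panels.

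Among inducing genes and genes that signal inside the cell, only Rac2 passed in any comparison. Of 12 inducing cytokines and transcription factors, none passed the DESeq2 test in CTX against UT (3 were lower at an unadjusted p under 0.05, where 5.79% of all genes were). Below 0 were 11, against 55.8% of all genes, with a median of -0.23 and a weighted mean of -0.11. Those below 0 include Ifng and Il6, which hold the repeated value of -0.98 (SE 4.08) described above. Rela, a subunit of NF-kB, was at -0.03 (SE 0.07), and Irf1, an interferon-induced factor, at -0.28 (SE 0.09) by the authors' deposited table. Il1b, the gene of interleukin 1 beta, was at -1.36 (SE 0.50, 95% interval -2.34 to -0.39) for CTX against UT and -1.94 (SE 0.51, 95% interval -2.94 to -0.94) for CAU against UT by the authors' deposited table, neither past the threshold. Of 11 receptor signalling genes, 1 fell, where 0.82% of all genes did: Rac2, a GTPase of white blood cells needed for their migration, at -1.14 (SE 0.24, 95% interval -1.60 to -0.67, adjusted p = 0.000555) by the authors' deposited table. The kinase gene Grk2, expressed in most cells, was at -0.11 (SE 0.07) by the authors' deposited table. In CTX against UT, 3 of the 11 signalling genes had an unadjusted p under 0.05, where 5.79% of all genes were lower and 4.42% higher. No inducing or signalling gene passed in CAU against CTX or in CAU against UT. An unadjusted p under 0.05 was found for 0 inducing genes and 1 signalling gene in CAU against CTX. At that level 3.32% of all genes were higher there and 2.04% lower. In CAU against UT there were 2 in each list, where 1.2% of all genes were higher and 2.26% lower.

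Lists of cell type markers are given beside the ligands, with both the median and the mean weighted by precision, since these can differ widely. In CTX against UT, 0.82% of all genes fell and 0.472% rose, and 55.8% were below 0. All 13 macrophage markers were below 0 and 5 fell (Adgre1, Csf1r, C1qa, C1qb and C1qc), with a median of -0.96 and a weighted mean of -0.75, while the most precise, Mertk, was at -0.13 (SE 0.14) by the authors' deposited table. Of 11 T and NK cell markers, 10 were below 0 and 2 fell (the NK cell receptor Ncr1 and the granzyme Gzma), with a median of -1.60 and a weighted mean of -0.95. Of 10 dendritic cell markers, 9 were below 0 (median -0.73), but Fscn1, an actin-bundling protein also made elsewhere, rose, at 0.25 (SE 0.05) by the authors' deposited table, and the weighted mean was 0.13. None passed among 10 neutrophil markers (8 below 0, median -1.28, weighted mean -0.57) or the 5 of 6 B cell markers measured (all below 0, median -0.87, weighted mean -0.57), with 1 unadjusted p under 0.05 in each. An unadjusted p under 0.05 was found for 10 of 13 macrophage, 4 of 11 T and NK cell and 2 of 10 dendritic cell markers. At that level 5.79% of all genes were lower and 4.42% higher. The dendritic cell list holds Xcr1 and Ccr7, receptors counted above, and the neutrophil list holds Cxcr2.

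Of 8 surface epithelium markers, all were below 0 in CTX against UT, where 55.8% of all genes were, and 2 fell (Upk3b and Lrrn4). The list had a median of -1.39 and a weighted mean of -0.93, while the most precise, Wt1, was at -0.37 (SE 0.23) by the authors' deposited table. Of 8 granulosa cell markers, all were above 0 and 3 rose (Inhba and Inhbb, which encode inhibin and activin subunits, and the activin-binding Fst), with a median of 0.61 and a weighted mean of 0.48. Inhbb was at 1.005 (SE 0.21) by the authors' deposited table. An unadjusted p under 0.05 was found for 5 of 8 surface epithelium and 4 of 8 granulosa cell markers. At that level 5.79% of all genes were lower and 4.42% higher. None passed among 6 oviduct (median -1.30, weighted mean -1.40), 6 lymphatic endothelial (-0.29 and -0.23), 7 endothelial (-0.06 and -0.13) and 6 stromal and theca markers (-0.06 and -0.03), with 0, 0, 2 and 1 at an unadjusted p under 0.05. Their most precise genes were Epcam, at -1.40 (SE 1.00), Reln, at -0.30 (SE 0.21), Kdr, at -0.27 (SE 0.09), and Pdgfra, at -0.11 (SE 0.09), by the authors' deposited table.

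For CAU against CTX, where 0.312% of all genes were higher and 0.13% lower, 2 of 13 macrophage markers rose (C1qb and C1qc; median 0.40, weighted mean 0.37), as did 3 of 11 T and NK cell markers (Ncr1, Gzma and Gzmb; 1.10 and 0.72). Of 8 granulosa cell markers 1 fell, Inhbb, at -0.47 (SE 0.09, 95% interval -0.65 to -0.29, adjusted p = 0.000565) by the authors' deposited table, and the list had a median of -0.16 and a weighted mean of -0.24. None passed in the other lists. Their medians and weighted means were 2.24 and 0.29 for neutrophil, 0.23 and -0.02 for dendritic cell, 0.27 and 0.13 for B cell, and 0.42 and 0.42 for platelet markers. They were 0.82 and 0.19 for surface epithelium, 1.20 and 1.50 for oviduct, -0.07 and 0.03 for lymphatic endothelial, -0.17 and -0.14 for endothelial (all 7 below 0) and -0.03 and -0.07 for stromal and theca markers. Of all genes, 52.3% were above 0 in CAU against CTX. For CAU against UT no marker passed, and the medians and weighted means were -0.48 and -0.39 for macrophage, -0.07 and -0.18 for T and NK cell, 0.67 and -0.22 for neutrophil, and 0.34 and 0.30 for granulosa cell markers. They were -0.35 and -0.14 for dendritic cell, -0.59 and -0.45 for B cell, 0.15 and 0.07 for platelet, -0.28 and -0.54 for surface epithelium, -0.06 and 0.06 for oviduct, -0.28 and -0.23 for lymphatic endothelial, -0.24 and -0.25 for endothelial, and -0.05 and -0.13 for stromal and theca markers. The part of any of these cell types in the ligand values was not tested.

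**Figure D4:**
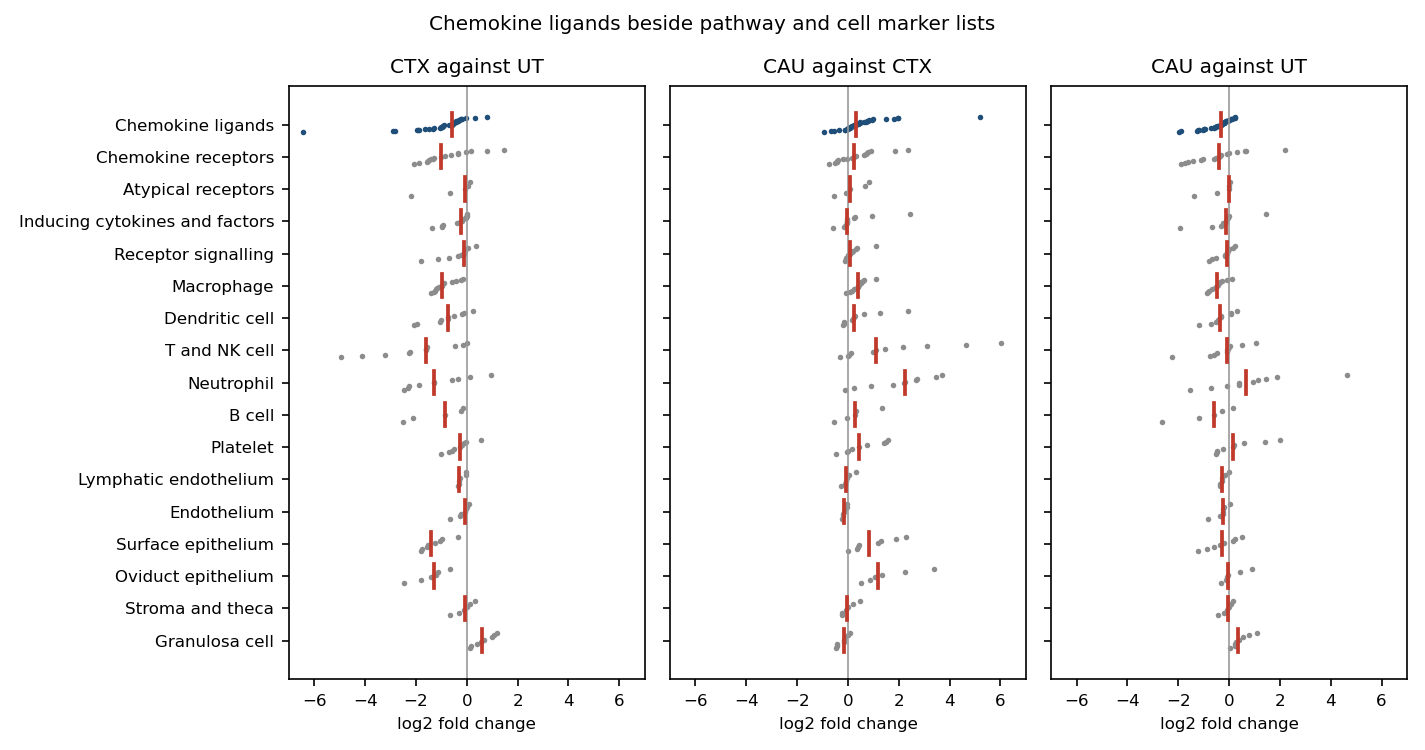
Log2 fold change of the chemokine ligand genes (blue) and of the genes described of the pathway and cell marker lists (grey) in the 3 comparisons, with a red bar at each median; the vertical spread within a row only separates points. In CTX against UT the ligand median of -0.60 lies between the nearest list medians, of the dendritic cell markers (-0.73) and the lymphatic endothelial markers (-0.29).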

How the data were processed

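Ovarian RNA-seq of 9 libraries in 3 groups was used through 1 table of comparisons. Tools listed in the submitters' processing notes are DESeq2 1.44.0, RSEM 1.3.1, Bowtie2 and HISAT2, with build GRCm38.p6; nothing on their roles, the strand setting, filters or covariates is given in the sources used here. Per the file headers, the authors computed a log2 fold change, and the p-value and q-value (adjusted p here) are those the authors deposited from DESeq2. Between 215 and 272 genes were blank in a comparison and left out of it.

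From these values were computed the implied SE (the size of the log2 fold change over the normal z of its 2-sided p-value, as holds for a Wald test without shrinkage), normal 95% intervals, inverse-variance weighted means and counts at adjusted p under 0.05. The first 2 comparisons added up to the third within 0.01 of a constant in 18772 of 18773 genes, so all 3 follow 1 sign convention. With the sign used, Cdkn1a, induced by DNA damage, was at 1.99 in CTX against UT in the authors' deposited table.

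Members and lists were chosen with earlier results of these data known. Members called in any comparison, or with an SE of at most 0.5 in CTX against UT, were to be given in full; any other member could be named. Of other lists, called genes and the gene with the smallest SE in CTX against UT could be named, and Ccr2, Ackr1, Irf1 and Il1b were named after their values were seen. Some listed genes are not reported here. Of 42 listed ligands, 5 (Ccl20, Ccl21b, Ccl21c, Ccl21d and Cxcl11) were not analysed here. Promoters came from RefSeq, searched for motif cores after longer forms had been tried, and transcripts from GENCODE M21. Calls and weights were run on normal values simulated from the implied SEs, which cannot check the normal form assumed for the deposited values. Of simulated log2 changes of 1, 63.2%, 56.8% and 53.5% were recovered in CTX against UT, CAU against CTX and CAU against UT. The changed genes were drawn from all genes and not from the ligands, whose SEs were mostly larger, so these shares do not hold for the ligands. In the same order, only 5 of 37, 7 of 36 and 1 of 37 ligands could pass with a log2 change of 1 or less. Computation ran in Python 3.11.15 with scipy 1.17.1, pandas 2.3.3 and numpy 2.4.6, and plots in matplotlib 3.10.9.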

Additional observations from a re-analysis of the deposited data

How the results depend on the processing

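In CTX against UT, 0 ligands passed at adjusted p under 0.01, 3 at 0.10 (all lower), and 0 when only genes with an SE of at most 1 were tested, since Ccl22 has an SE of 1.70; the other alternatives kept the count of 1. With z divided by its robust spread over all genes, 1 ligand passed in CAU against CTX (Ccl5, higher, adjusted p = 0.0292) and 1 in CAU against UT (Cxcl12, lower, adjusted p = 0.000679), and all genes passing rose from 85 to 237 and from 10 to 255. In CTX against UT that scaling gave 237 genes in place of 249, setting the median of all genes to 0 gave 290 (134 lower and 156 higher, in place of 158 lower and 91 higher), and testing only genes with an SE of at most 1 gave 273.

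With equal weights, the mean log2 fold changes were -0.99, 0.53 and -0.47 in CTX against UT, CAU against CTX and CAU against UT, in place of -0.52, 0.16 and -0.30. With the SE floored at the members' median, they were -0.74 and 0.43 in the first 2. No alternative turned the sign of a weighted mean. With only members of SE up to 1, 20 of 26 were below 0 in CAU against UT in place of 31 of 37, with fewer members counted. Setting the median of all genes to 0 kept 107 signs of single members and turned 3. Cxcl15 turned to 0.0065 in CTX against UT, and Ccl3 to -0.0037 and Ppbp to -0.0018 in CAU against CTX.

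No paired analysis was possible because the table holds comparisons of groups and no values per library, and for the same reason no replicate was left out. Depth is unknown, so the implied SE is the only limit on precision given. The alternatives to the counts of signs, and weighted means without the 4 members that share sequence, were added after the data were seen.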
